A study of Mus musculus with 4 samples.

Results

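Cyclic nucleotide signalling genes were followed in RNA of the mouse olfactory bulb: the adenylyl cyclases, the subunits of soluble guanylyl cyclase, the phosphodiesterases, and the kinases that cAMP and cGMP switch on. Members were taken by a rule on gene symbols, chosen with earlier results of these data known. It took every Adcy gene except Adcy3, every Pde gene with a number and a letter, and all Gucy1, Prkac, Prkar and Prkg genes. The rule gave 45 of the 20032 genes in the deposited table. Bulbs were collected at postnatal day 11 from 2 control and 2 mutant samples, all on a mixed background of C57BL/6J, 129S6 and CD1. Controls were littermates without Cre, and the labels do not say which floxed alleles they carried. Mutants, called Sp8/Sp9-DCKO (DCKO below), were Sp9 Flox/Flox as well as Sp8 Flox/Flox and carried the Dlx5/6-CIE transgene, in which a Dlx5/6 enhancer drives Cre in precursors of GABAergic neurons, so the deletion of these transcription factor genes is aimed at that lineage. The labels do not say whether replicates came from separate animals or from pooled bulbs, so p-values measure only the spread between these samples.

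Adenylyl cyclases make cAMP from ATP, and soluble guanylyl cyclase, a heme protein of an alpha and a beta subunit, makes cGMP when it binds nitric oxide. Phosphodiesterases break these messengers down, and their families differ in whether they accept cAMP, cGMP or both and in what regulates them. The messengers act mainly through protein kinase A (PKA), a complex of regulatory and catalytic subunits that comes apart when cAMP binds, and through the cGMP-dependent protein kinases (PKG). In the olfactory bulb, nitric oxide is made by a subset of interneurons, and cAMP signalling also serves noradrenergic and other modulatory inputs to mitral and granule cells.

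Values are FPKM (fragments scaled by transcript length and by the mapped fragments of the library). They are relative to the RNA of each library, so differences between samples depend on how the libraries are scaled. The count columns deposited beside the FPKM, treated here as already scaled by the authors, summed to between 14632502 and 15400982 per library. These sums are therefore not read as sequencing depth. Both targeted genes were low in DCKO: Sp8 stood at 32.0 and 26.7 FPKM in controls and 1.68 and 2.03 in DCKO, and Sp9 at 24.0 and 30.7 against 0.0674 and 0.236. The cell type marker lists were chosen with earlier results of these data known, so the directions of their genes are no independent check. Of all tested genes, 14.3% were lower and 13% higher by the test described below. Sp8 and Sp9 are also on the list of GABAergic bulb interneuron markers and are left out here. The 10 other markers on it all fell, and none was at 0. Their summed level went from 996.6 and 972.7 FPKM in controls to 124.8 and 195.7 in DCKO replicates 1 and 2. All 8 tested mitral and tufted cell markers rose (summed 751.9 and 818.7 FPKM in controls, 1641 and 1460 in DCKO), as did 5 of 7 astrocyte markers (540.4 and 540.3 against 1024 and 957.4) and 5 of 7 microglia markers (85.81 and 84.17 against 132.5 and 140.7). Of 7 endothelial and mural markers 2 rose, of 5 olfactory ensheathing cell markers 3 rose, and none of 7 oligodendrocyte lineage markers passed. None of 6 olfactory sensory neuron markers passed either, but their sum was uneven, at 313.5 and 103 FPKM in controls 1 and 2 and 195.1 and 153.2 in DCKO. In whole-bulb RNA, fewer cells of a type and less RNA per cell cannot be told apart. The part of these shifts in the results below was not tested, also where marker values are given beside a gene.

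Soluble guanylyl cyclase fell the most, and the phosphodiesterases changed in opposite directions, while no PKA or PKG subunit passed the test. Averaged over all 4 libraries, 36 of the 45 members reached 1 FPKM and were tested. In limma with Benjamini-Hochberg adjustment over all 13434 tested genes and a threshold of 0.05, 9 members fell (25% of those tested, against 14.3% of all tested genes) and 3 rose (8.33%, against 13%). In either direction that is 12 of 36, or 33.3%, against a background of 27.3%. The median log2 change of the tested members was -0.15, and that of all tested genes -0.02. Log2 changes, SE and p-values here and below are on log2(FPKM + 1). Folds are ratios of group mean FPKM with nothing added, so folds and log2 changes differ, most for low genes. With the median of the libraries brought level, 5 members rose and 8 fell, while 2225 genes rose and 1580 fell in place of 1747 and 1926. The groups did not overlap for 30 of the 36 members (83.3%), DCKO lying below in 19 and above in 11. Over all tested genes the groups did not overlap for 71.5%, with DCKO below in 37.6% and above in 33.9%. With 2 samples a group, an exact permutation test of 1 gene cannot give a p below 0.333.

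**Figure D1:**
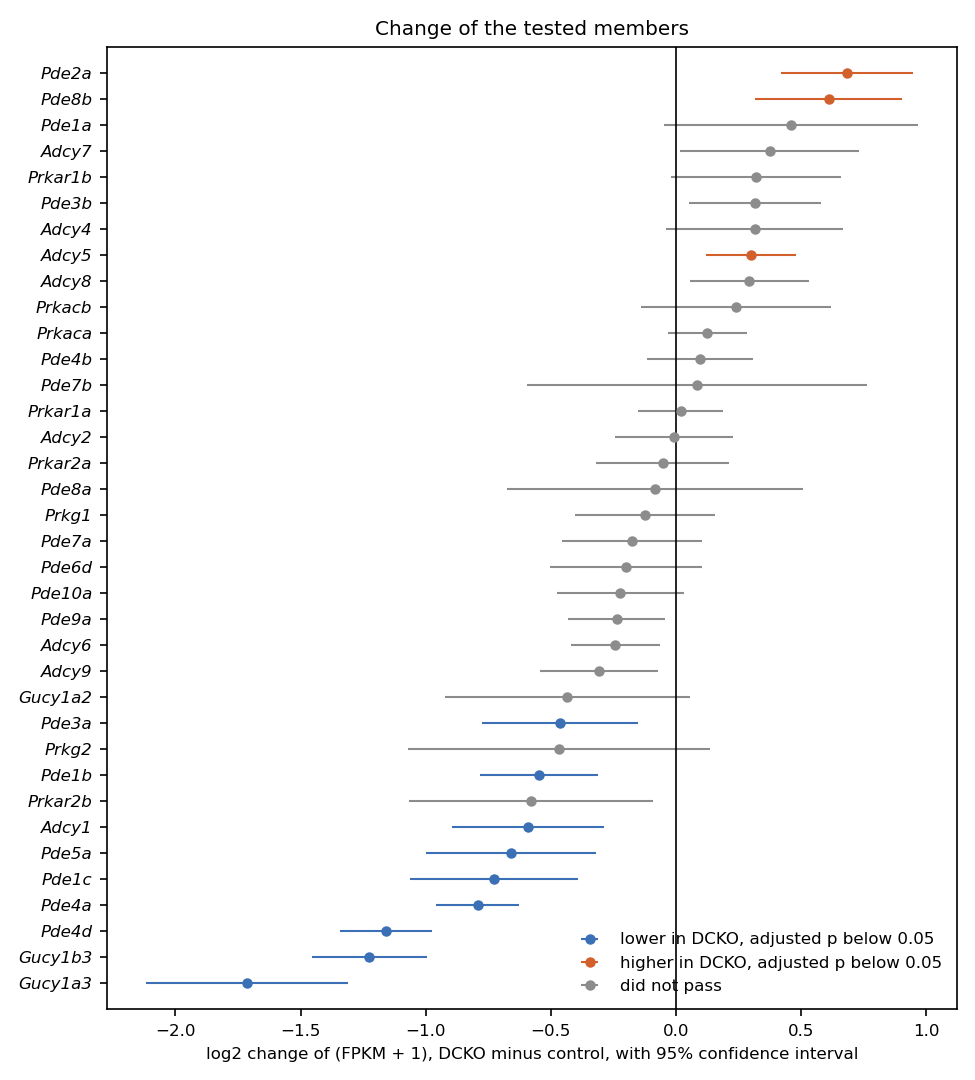
Change of each of the 36 tested members, as the difference in log2(FPKM + 1) between DCKO and control with its 95% confidence interval (limma). The 9 members in blue fell and the 3 in orange rose at an adjusted p below 0.05, and Gucy1a3, at -1.72, lies farthest from 0.

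Soluble guanylyl cyclase is the receptor for nitric oxide, and its main subunits were both lower in DCKO. Gucy1a3, the alpha1 subunit (chromosome 3, 82092427 to 82145789 in GRCm38, - strand, a protein-coding gene like all members given with coordinates here), stood at 28.4 and 29.3 FPKM in controls and at 6.80 and 9.60 in DCKO. Gucy1b3, the beta1 subunit that holds the heme (chromosome 3, 82032006 to 82074689, - strand), stood at 47.3 and 53.3 FPKM in controls and at 20.03 and 21.8 in DCKO. Both DCKO libraries lay far below both controls for each gene. Gucy1a3 fell 3.52-fold (log2 change -1.72, SE 0.16, limma adjusted p = 0.00411) and Gucy1b3 fell 2.40-fold (log2 change -1.22, SE 0.09, adjusted p = 0.00250). These calls held in all 13 alternative fits, the 4 without 1 library included. Summed interneuron markers, Sp8 and Sp9 left out, were 6.15-fold lower in the same libraries, and their part in these changes was not tested. The genes are neighbours: their models run in the same direction with 17737 bases and no other annotated gene between them.

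The minor subunits did not follow as clearly. Gucy1a2, the alpha2 subunit, stood at 3.36 and 3.71 FPKM in controls and 1.83 and 2.98 in DCKO, which did not pass (difference of -0.43 on the log2 scale, interval -0.92 to 0.06 at 95% confidence, adjusted p = 0.148). Without DCKO replicate 2 it was called (adjusted p = 0.0393). Within each library, Gucy1a3 FPKM was 8.45 and 7.90 times Gucy1a2 FPKM in the controls and 3.72 and 3.22 times in DCKO. Gucy1b2, a beta subunit of low level in most tissues, lay below the filter, at 0.127 to 0.394 FPKM over the 4 libraries.

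The bases before the annotated starts of both subunit genes are shown with those of Pde4a and Pde2a. Pde4a is another gene that fell in all fits, and Pde2a rose most of the members on the log2(FPKM + 1) scale. As a ratio of FPKM, Pde8b rose more (1.72-fold against 1.61-fold for Pde2a). They come from RefSeq (GRCm38.p6), read in the direction of the gene at its most upstream listed start, as 250 bases before that start or, for Gucy1a3, the 111 of them that no annotated exon reaches. Capitals mark GGGCGG or its reverse CCGCCC, the GC box that Sp-family factors are known to bind, and TGACG or its reverse CGTCA, the core of the cAMP response element, overlapping matches counted separately. The windows lie at chr3:82074712-82074961 (- strand) for Gucy1b3, chr3:82145790-82145900 (- strand) for Gucy1a3, chr9:21165464-21165713 (+ strand) for Pde4a and chr7:101421441-101421690 (+ strand) for Pde2a.
Gucy1b3: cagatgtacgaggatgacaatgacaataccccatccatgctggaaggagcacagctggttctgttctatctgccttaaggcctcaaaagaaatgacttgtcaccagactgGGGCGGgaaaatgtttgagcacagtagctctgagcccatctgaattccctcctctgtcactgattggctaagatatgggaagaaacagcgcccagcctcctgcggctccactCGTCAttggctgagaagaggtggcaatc
Gucy1a3: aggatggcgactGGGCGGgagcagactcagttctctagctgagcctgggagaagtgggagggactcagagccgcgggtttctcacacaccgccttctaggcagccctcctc
Pde4a: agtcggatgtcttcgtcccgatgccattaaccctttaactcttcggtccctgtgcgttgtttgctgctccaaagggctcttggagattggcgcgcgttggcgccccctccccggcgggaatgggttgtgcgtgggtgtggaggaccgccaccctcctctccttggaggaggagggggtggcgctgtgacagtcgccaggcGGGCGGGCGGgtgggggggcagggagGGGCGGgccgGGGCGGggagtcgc
Pde2a: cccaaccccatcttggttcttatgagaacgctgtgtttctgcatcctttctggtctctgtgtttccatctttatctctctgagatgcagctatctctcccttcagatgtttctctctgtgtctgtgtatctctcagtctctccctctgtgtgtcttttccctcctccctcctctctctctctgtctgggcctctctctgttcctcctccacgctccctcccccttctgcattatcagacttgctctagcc

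The printed stretches hold 1 GC box for Gucy1b3, 1 for Gucy1a3, 4 for Pde4a and 0 for Pde2a, and Gucy1b3 alone of these 4 holds the TGACG core, once. The 4 stretches do not stand for the members called: Pde4d, which also fell in all fits, held 0 GC boxes in its listed window. Adcy5, which rose, held 4. RefSeq windows were matched for 35 of the 45 members. For 48 of their 73 windows, the 20 bases after the start lay in an annotated transcript of the gene, and the other windows were kept. At least 1 window held a GC box in 6 of the 8 members that fell and have an entry and in all 3 that rose, the match for Pde2a being at a later start. Over all members with an entry this was 23 of 35 genes and 30 of 73 windows. Over all 32851 windows of this length, 32.7% held a GC box, 17.8% the TGACG core and 1.55% the full element TGACGTCA. The full element was found in 1 of the 73 member windows, and in none of the windows of the members that fell or rose. Several members have more than 1 start, so shares per gene and per window differ. The share per gene over all genes is not given here, so the counts of 6 of 8 and all 3 have no like background. They cannot be set against the 32.7% of windows, and these matches are a description of letters only.

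Genes upstream and downstream of this cyclase were read from lists of pathway genes chosen with earlier results known. Nos1, the neuronal nitric oxide synthase, stood at 11.8 and 11.3 FPKM in controls and 1.64 and 1.70 in DCKO and fell 6.91-fold (log2 change -2.23, SE 0.09, limma adjusted p = 0.000745). Nos3, the endothelial synthase, rose 1.52-fold (2.99 and 3.43 FPKM against 4.88 and 4.91, adjusted p = 0.0279), a call lost with no filter (0.0612), under the replicate block (0.0540) and whichever library was left out (highest adjusted p = 0.137), and summed endothelial and mural markers were 1.21-fold higher. Of the 5 tested genes of the list that holds nitric oxide synthases and receptor guanylyl cyclases, these were the only calls, 1 in each direction. Over all tested genes, 27.3% were called. Npr1, the natriuretic peptide receptor cyclase, lay at 10.9 and 9.80 FPKM in controls and 25.4 and 15.0 in DCKO and did not pass (adjusted p = 0.0595). Of the enzymes that break down cGMP alone, Pde5a fell from 3.88 and 4.04 FPKM to 1.86 and 2.45 (log2 change -0.66, SE 0.13, adjusted p = 0.0254). Its call was lost with no filter on low genes (adjusted p = 0.0568) and without either control or DCKO replicate 1 (highest adjusted p = 0.0783). Pde9a, a cGMP enzyme of high affinity, stood at 9.69 and 10.1 FPKM against 8.15 and 8.36 and did not pass (log2 change -0.24, 95% confidence interval -0.43 to -0.05, adjusted p = 0.0724).

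Neither kinase at the end of this branch passed the test. Prkg1, the PKG form also known from smooth muscle, lay at 2.55 and 2.51 FPKM in controls and 2.16 and 2.31 in DCKO (a log2 difference of -0.12, with -0.41 to 0.16 as its 95% confidence interval). Prkg2, the membrane-bound form, lay at 2.39 and 2.15 FPKM in controls and 0.906 and 1.93 in DCKO (a difference of -0.47 on the log2 scale, with -1.07 to 0.14 as its 95% confidence interval, adjusted p = 0.190). The DCKO libraries of Prkg2 lay farther apart than its controls, and it was called only without DCKO replicate 2 (adjusted p = 0.0409).

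**Figure D2:**
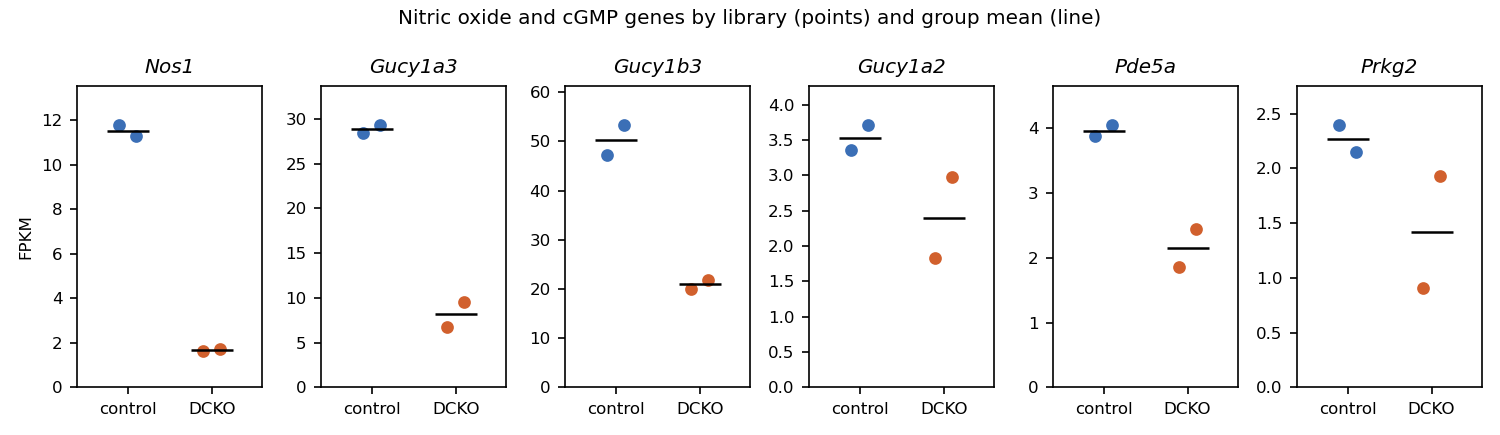
FPKM of Nos1, Gucy1a3, Gucy1b3, Gucy1a2, Pde5a and Prkg2 in each library (points; controls blue, DCKO orange) with the group means (lines), each panel on its own axis from 0. DCKO lies below control in all 6 panels; Gucy1a2 and Prkg2, whose DCKO libraries lie far apart, did not pass the test.

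The summed FPKM of the genes with a Pde symbol was slightly lower in DCKO, and their make-up shifted. Their summed FPKM was 241 and 244.6 in controls and 229.3 and 220.9 in DCKO. This sum is of RNA, takes in Pde6d, and does not measure the breakdown of cAMP or cGMP. Genes for cAMP alone summed to 99.28 and 98.59 FPKM in controls and 71.8 and 69.43 in DCKO. Those for cGMP alone summed to 13.57 and 14.19 against 10.02 and 10.81. Genes for both messengers, Pde2a included, summed to 96.22 and 105.8 against 122.2 and 115.9. Of 24 members with a Pde symbol, 17 were tested, of which 6 fell, 2 rose and 9 did not pass. Over all tested genes 14.3% fell and 13% rose. Pde2a took 18.9% and 21.7% of the family's FPKM in controls and 36.3% and 34.3% in DCKO, while Pde4d went from 12.1% and 12.8% to 5.70% and 5.80%. Pde2a was the highest of the family in every library, and its FPKM was 1.57 and 1.70 times that of Pde4d in controls and 6.38 and 5.91 times in DCKO.

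**Figure D3:**
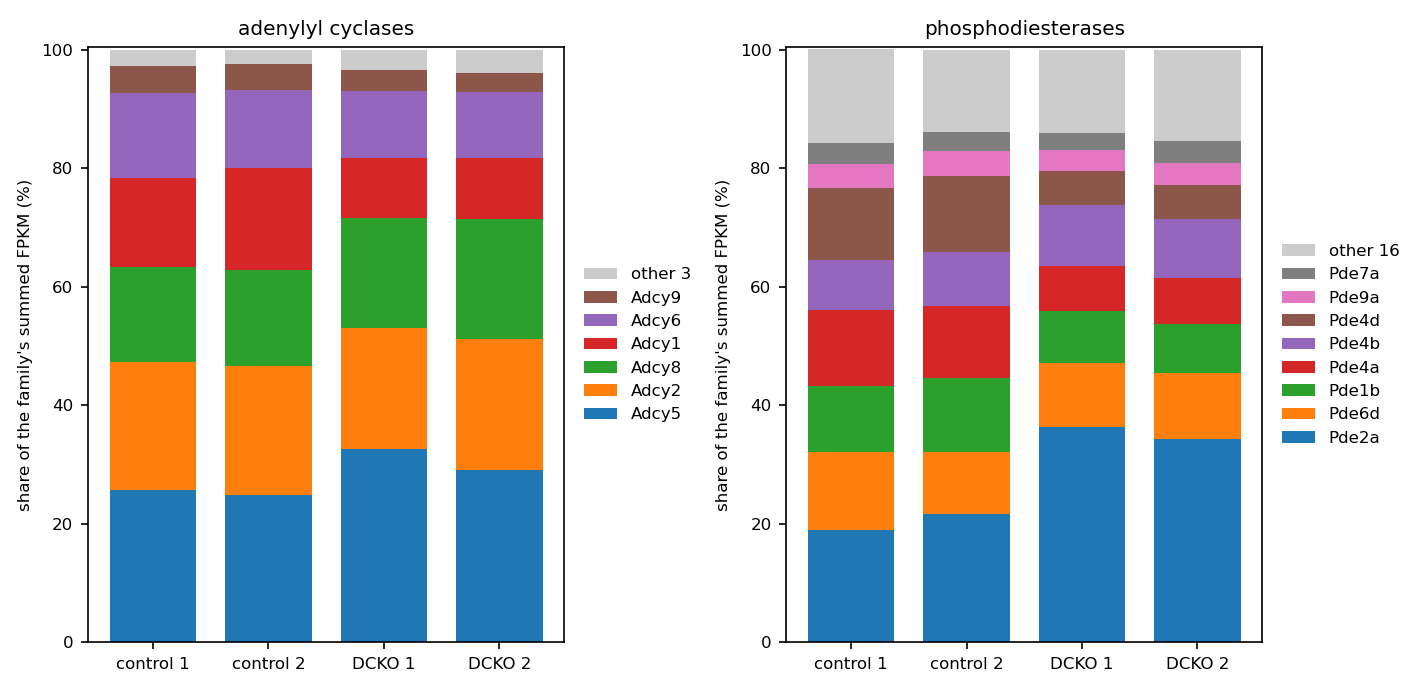
Share of each adenylyl cyclase (left) and phosphodiesterase (right) in the summed FPKM of its family, in percent, for each library; less abundant genes are pooled in grey. The Pde2a block grows from about 20% in controls (18.9% and 21.7%) to 36.3% and 34.3% in DCKO, while the Pde4a and Pde4d blocks shrink.

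PDE4 enzymes act on cAMP only and are the targets of rolipram; 2 of the 3 tested genes fell. Pde4d (chromosome 13, 108449948 to 109953461, + strand) stood at 29.0 and 31.2 FPKM in controls and 13.1 and 12.8 in DCKO. It fell 2.33-fold (log2 change -1.16, SE 0.07, limma adjusted p = 0.00172), the lowest adjusted p of any member. Pde4a (chromosome 9, 21165714 to 21213248, + strand) stood at 30.8 and 29.8 FPKM in controls and 17.2 and 16.9 in DCKO, 1.77-fold lower (log2 change -0.79, SE 0.06, adjusted p = 0.00315). The groups were far apart and the replicates close for both genes, and the calls held in all 13 alternatives. Pde4b, by contrast, stood at 20.5 and 22.4 FPKM in controls and 23.9 and 22.0 in DCKO, so that the groups overlapped (a log2 difference of 0.09, with -0.12 to 0.31 as its 95% confidence interval). Pde4d FPKM was 1.42 and 1.40 times that of Pde4b in controls and 0.547 and 0.584 times in DCKO. Pde4c was too low to be tested (controls 0.384 and 0.418 FPKM, DCKO 0.243 and 0.0931).

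The remaining cAMP enzymes, PDE7 and PDE8, were lower in level and mostly did not pass. Pde8b, a cAMP enzyme of high affinity, rose from 2.56 and 2.93 FPKM to 5.01 and 4.42 (1.72-fold, log2 change 0.61, SE 0.11, limma adjusted p = 0.0215), a call lost with no filter (adjusted p = 0.0508) and without control replicate 1 or DCKO replicate 1 (highest adjusted p = 0.0802). Its exons share bases with the antisense gene Gm48420, and the strand setting of the counting is not given in the sources used here. Its paralog Pde8a stood at 2.37 and 1.22 FPKM in controls, which enclosed the 1.49 and 1.68 of DCKO. Pde7a stood at 8.67 and 8.05 FPKM in controls and 6.64 and 7.96 in DCKO, and Pde7b at 4.98 and 2.57 against 4.24 and 3.57. The controls of Pde7b enclosed its DCKO libraries as well, and none of Pde8a, Pde7a and Pde7b passed the test.

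PDE1 enzymes, which calcium and calmodulin switch on and which take both messengers, were lower for 2 of 3 genes. Pde1b, the form known from striatal and granule neurons, stood at 26.9 and 30.6 FPKM in controls and 20.2 and 18.5 in DCKO and fell 1.49-fold (log2 change -0.55, SE 0.09, limma adjusted p = 0.0164). Pde1c, which is also found in the cilia of olfactory sensory neurons, stood at 7.11 and 6.05 FPKM in controls and 3.20 and 3.95 in DCKO and fell 1.84-fold (log2 change -0.73, SE 0.13, adjusted p = 0.0192). The calls were lost without control replicate 2 or DCKO replicate 2 for Pde1b (highest adjusted p = 0.0612) and without control replicate 1 or DCKO replicate 1 for Pde1c (highest adjusted p = 0.0607). Summed sensory neuron markers lay at 313.5 and 103 FPKM in controls and 195.1 and 153.2 in DCKO, and their part in the Pde1c values was not tested. Pde1a, at 3.42 and 2.34 FPKM in controls and 3.67 and 4.99 in DCKO, did not pass (a log2 difference of 0.46, with -0.05 to 0.97 as its 95% confidence interval).

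Other enzymes that take both messengers moved in different directions. Pde2a, which cGMP stimulates to break down cAMP (chromosome 7, 101421691 to 101512827, + strand), stood at 45.5 and 53.2 FPKM in controls and 83.3 and 75.7 in DCKO. It rose 1.61-fold (log2 change 0.68, SE 0.10, limma adjusted p = 0.0129), with DCKO above control in both libraries, and of 13 alternatives missed the threshold only without DCKO replicate 1 (adjusted p = 0.0504). Summed mitral and tufted cell markers were 1.97-fold higher in DCKO and summed astrocyte markers 1.83-fold higher, and their part in the rise of Pde2a was not tested. The gene model Gm45837 shares exons with Pde2a on the same strand, and how shared reads were assigned is not given in the sources used here. Pde3a, which cGMP inhibits, fell from 3.53 and 3.53 FPKM to 2.05 and 2.53 (log2 change -0.46, SE 0.12, adjusted p = 0.0470), a call lost in 6 of 12 alternatives, among them those without either control or without DCKO replicate 1 (highest adjusted p = 0.152). Its exons also share bases with an antisense gene, Gm28523. Its paralog Pde3b, at 3.14 and 2.98 FPKM in controls and 3.85 and 4.27 in DCKO, did not pass (log2 change 0.32, adjusted p = 0.0784), though it was called with median centring (0.0441) and on scaled counts (0.0370).

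Pde10a, the enzyme of striatal projection neurons, stood at 5.98 and 6.89 FPKM in controls and 5.25 and 5.47 in DCKO and did not pass (a log2 difference of -0.22, with -0.48 to 0.03 as its 95% confidence interval). Pde11a lay below the filter, between 0.278 and 0.753 FPKM. Among the genes named for the photoreceptor enzyme PDE6, Pde6d, which codes for a carrier of prenylated proteins found in many tissues, stood at 31.9 and 25.4 FPKM in controls and 24.9 and 24.4 in DCKO and did not pass (adjusted p = 0.253). Pde6a, Pde6b, Pde6c, Pde6g and Pde6h, the catalytic and inhibitory subunits of rods and cones, were below 0.4 FPKM in every library.

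**Figure D4:**
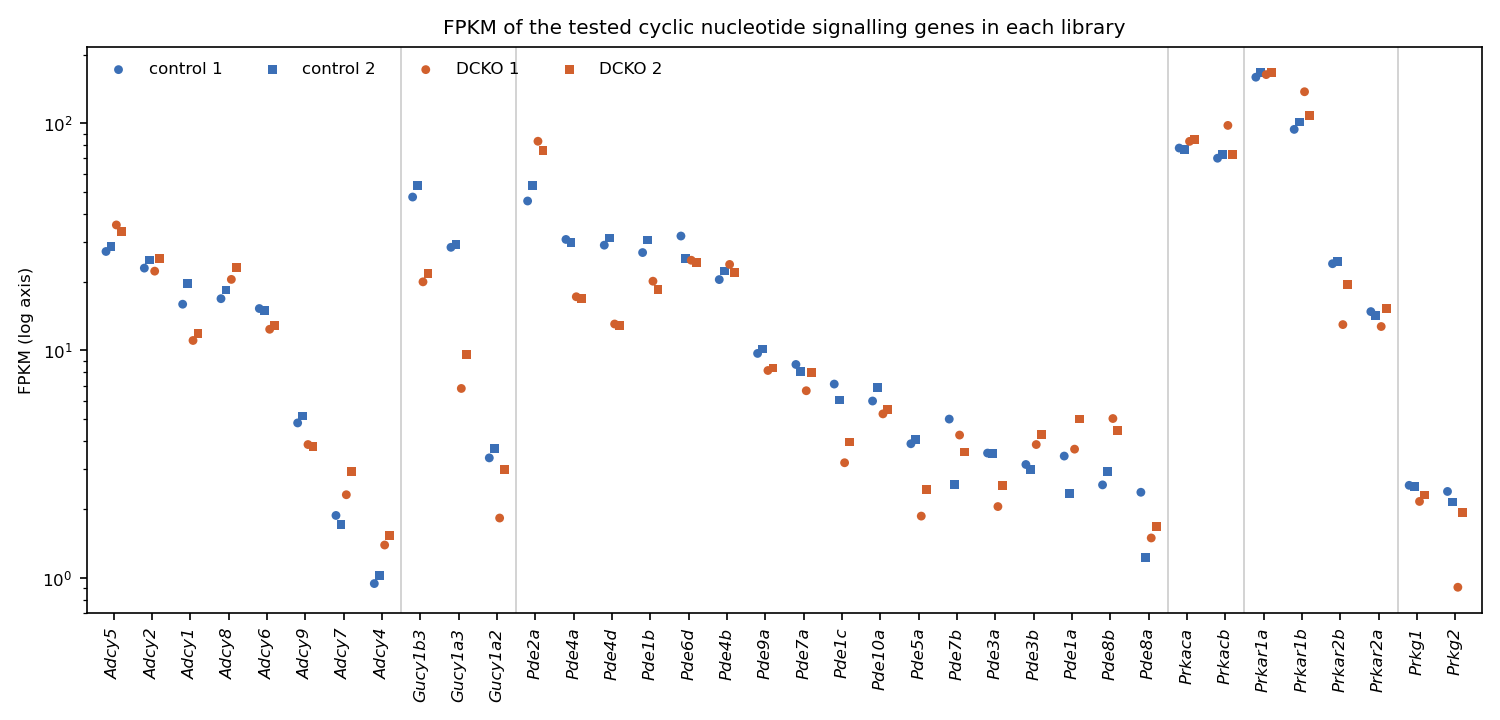
FPKM of the 36 tested members in each library on a log axis, grouped by family (adenylyl cyclases, soluble guanylyl cyclase, phosphodiesterases, PKA catalytic, PKA regulatory, PKG) and ordered by control mean within it. Circles are replicate 1 and squares replicate 2, controls in blue and DCKO in orange; the vertical lines part the families, and Prkar1a sits highest, at 159 to 167 FPKM.

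Of the 8 tested adenylyl cyclases, 1 fell, 1 rose and 6 did not pass (all tested genes: 14.3% fell and 13% rose). Their summed FPKM was 106 and 114.6 in controls and 109.5 and 115.1 in DCKO. Adcy1, a calcium- and calmodulin-stimulated cyclase of neurons (chromosome 11, 7063489 to 7178506, + strand), stood at 16.0 and 19.8 FPKM in controls and 11.1 and 11.9 in DCKO. It fell 1.56-fold (log2 change -0.59, SE 0.12, limma adjusted p = 0.0251), and its call was lost with no filter (adjusted p = 0.0547) and without control replicate 2 or either DCKO library (highest adjusted p = 0.0889). Adcy8, the other cyclase that calcium and calmodulin stimulate, stood at 16.9 and 18.4 FPKM in controls and 20.5 and 23.2 in DCKO. Its groups did not overlap, in the opposite order to those of Adcy1, but it did not pass (log2 change 0.29, 95% confidence interval 0.06 to 0.53, adjusted p = 0.0725). It was called higher with median centring (adjusted p = 0.0456), with quantile normalization (0.0443) and on scaled counts (0.0467).

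Adcy5, the cyclase that dominates in the striatum and is inhibited by Gi (chromosome 16, 35154877 to 35305738, + strand), stood at 27.2 and 28.5 FPKM in controls and 35.7 and 33.5 in DCKO. It rose 1.24-fold (log2 change 0.30, SE 0.07, limma adjusted p = 0.0367), a call lost with no filter (adjusted p = 0.0523), with no variance trend (0.0578), with the replicate number as a block (0.0744) and without either control or DCKO replicate 1 (highest adjusted p = 0.186). Adcy5 was the most abundant cyclase in every library, with 25.7% and 24.9% of the family's FPKM in controls and 32.6% and 29.1% in DCKO. Its FPKM was 1.71 and 1.44 times that of Adcy1 in controls and 3.23 and 2.82 times in DCKO. Adcy6, its close relative, went the other way without passing, at 15.3 and 15.0 FPKM against 12.4 and 12.9 (log2 change -0.24, adjusted p = 0.0581); it was called with a filter at 5 FPKM (adjusted p = 0.0482), and it shares exon bases with the antisense gene Gm29331.

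The cyclases that G protein beta-gamma subunits or protein kinase C stimulate did not pass. Adcy2 stood at 23.0 and 24.97 FPKM in controls and 22.3 and 25.4 in DCKO, with groups that overlapped (a log2 difference of -0.01, with -0.25 to 0.23 as its 95% confidence interval; its sign turned with each of the 3 other scalings). Adcy7, known from immune cells and microglia, stood at 1.88 and 1.70 FPKM against 2.31 and 2.94 (adjusted p = 0.106, and 0.0438 on scaled counts), and Adcy4 at 0.940 and 1.02 against 1.39 and 1.53 (adjusted p = 0.147). For both, the groups did not overlap and DCKO lay above, as it did for 33.9% of all tested genes. Summed microglia markers were 1.61-fold higher in DCKO, with P2ry12 and Tmem119 among them not passing. The part of microglia in the Adcy7 and Adcy4 values was not tested. Adcy9, the cyclase that forskolin hardly activates, stood at 4.79 and 5.14 FPKM against 3.85 and 3.77 (adjusted p = 0.0631) and was called with no variance trend (0.0491) and on scaled counts (0.0490). Adcy10, the soluble cyclase that bicarbonate activates, was at or below 0.0181 FPKM in every library.

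None of the 6 PKA subunit genes passed the test, and Prkar1a and Prkar1b had the highest mean levels of all members in both groups. Prkar1a, the widely expressed type I regulatory subunit, stood at 159 and 167 FPKM in controls and 164 and 167 in DCKO (a log2 difference of 0.02, with -0.15 to 0.19 as its 95% confidence interval; its sign turned on scaled counts). Prkar1b, the type I form of neurons, stood at 93.9 and 101.2 FPKM against 138 and 108 (log2 change 0.32, 95% confidence interval -0.02 to 0.66). The catalytic subunits Prkaca, at 77.7 and 76.5 FPKM against 83.2 and 85.1, and Prkacb, at 70.1 and 72.7 against 97.8 and 73.0, did not pass either. Summed regulatory FPKM was 1.98 and 2.06 times summed catalytic FPKM in controls and 1.81 and 1.96 times in DCKO.

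Prkar2b, a type II regulatory subunit, was the PKA gene with the largest difference. It stood at 24.1 and 24.6 FPKM in controls and 13.0 and 19.5 in DCKO (a difference of -0.58 on the log2 scale, with -1.07 to -0.09 as its 95% confidence interval, limma adjusted p = 0.0783). Its DCKO libraries were far apart, and without DCKO replicate 2 it was called (log2 change -0.86, adjusted p = 0.0137), as were Prkar1b (0.49, adjusted p = 0.0318) and Prkacb (0.45, adjusted p = 0.0267). DCKO replicate 2 was nearer to the controls than replicate 1 for all 3 genes. Summed interneuron markers were 124.8 and 195.7 FPKM in DCKO replicates 1 and 2, and their part in the spread between these libraries was not tested. On scaled counts Prkar2b was called as well (adjusted p = 0.0395). Prkar2a, the other type II subunit, stood at 14.8 and 14.2 FPKM against 12.7 and 15.2, with overlapping groups (a log2 difference of -0.05, whose sign turned with median centring and quantile normalization). Within each library Prkar1b FPKM was 3.90 and 4.11 times that of Prkar2b in controls and 10.6 and 5.52 times in DCKO.

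Proteins that place or restrain PKA changed in both directions: of 14 tested inhibitors and anchoring proteins, 4 fell, 2 rose and 8 did not pass. The shares of all tested genes were 14.3% lower and 13% higher. Akap5, which holds PKA at glutamatergic synapses, fell from 7.11 and 6.95 FPKM to 2.70 and 3.29 (2.35-fold, log2 change -1.01, limma adjusted p = 0.00633). Akap7 rose from 8.06 and 9.43 FPKM to 16.0 and 17.6 (1.92-fold, adjusted p = 0.00748), and Akap12, also known as gravin, from 13.7 and 11.9 to 22.0 and 20.8 (1.67-fold, adjusted p = 0.00938). These 3 calls held whichever library was left out. Akap1, Akap2 and Akap8 were the others that fell, and the PKA inhibitors Pkia, Pkib and Pkig did not pass.

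Among 7 G protein alpha subunits that act on adenylyl cyclase, 2 fell and 1 rose, against 14.3% and 13% of all tested genes. Gnai1, an inhibitory subunit, fell from 59.8 and 63.9 FPKM to 30.4 and 32.5 (1.97-fold, log2 change -0.95, limma adjusted p = 0.00280), a call that held whichever library was left out. Gnao1 fell less (136 and 140 FPKM against 114 and 118, adjusted p = 0.0472, a call kept in 3 of 13 alternatives and lost whichever library was left out, highest adjusted p = 0.287). Gnai2 rose (90.9 and 93.8 FPKM against 114 and 135, adjusted p = 0.0370), a call lost with no filter (0.0709), with no variance trend (0.0531) and without either control (highest adjusted p = 0.116). The stimulatory subunits Gnas and Gnal did not pass.

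Of all tested genes, 14.3% fell and 13% rose. Of the 8 tested effectors that bind cyclic nucleotides directly other than PKA and PKG, 2 fell and 1 rose. These were the pacemaker channel genes Hcn2 (44.7 and 49.7 FPKM against 37.4 and 34.9) and Hcn4 (11.7 and 12.2 against 8.14 and 9.71), which fell, and Rapgef3, the exchange factor EPAC1 (21.3 and 21.9 against 27.1 and 27.7), which rose, with limma adjusted p of 0.0320, 0.0483 and 0.0236. Of 13 alternatives, Hcn2 was called in 7, Hcn4 in 4 and Rapgef3 in 10. With a library left out, the Hcn2 call was lost without control replicate 2 or either DCKO library (highest adjusted p = 0.160), that of Hcn4 without either control or DCKO replicate 1 (0.185), and that of Rapgef3 without either control (0.133). With no filter and with median centring the calls of Hcn2 (0.0560 and 0.0616) and Hcn4 (0.0868 and 0.0598) were lost too, that of Hcn4 also with quantile normalization (0.0593), with no variance trend (0.0600) and on scaled counts (0.0754). The replicate block ended all 3 calls (0.0583 for Hcn2, 0.0549 for Hcn4 and 0.0512 for Rapgef3). Of the 8 genes of CREB and its coactivators, 3 fell and none rose, where 14.3% and 13% of all tested genes did. They were Crebbp (log2 change -0.42), Crtc1 (-0.41) and Crtc2 (-0.37), with limma adjusted p of 0.0207 to 0.0235. All 3 calls were lost without either control or DCKO replicate 1 (highest adjusted p 0.141, 0.111 and 0.146), that of Crtc2 also under the replicate block (0.0524), and Creb1 itself did not pass.

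Substrates and partners of PKA in neurons were higher for 3 of 7 tested genes and lower for 1. Of all tested genes, 13% were higher and 14.3% lower. Ppp1r1b (DARPP-32), a phosphatase inhibitor once PKA has phosphorylated it, rose from 18.6 and 17.3 FPKM to 66.8 and 52.8 (3.33-fold, log2 change 1.67, SE 0.13, limma adjusted p = 0.00267). Arpp21, another PKA substrate of striatal neurons, rose from 62.1 and 66.4 FPKM to 106 and 90.5 (1.53-fold, adjusted p = 0.0159), and Arpp19 rose as well. Pde4dip, myomegalin, a scaffold that binds PDE4D, fell from 36.3 and 39.3 FPKM to 24.3 and 25.2 (1.53-fold, adjusted p = 0.00826). The calls of Ppp1r1b, Arpp21 and Pde4dip held in all 13 alternatives.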

How the data were processed

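The authors deposited 1 table with FPKM and count columns for 4 libraries (2 per genotype). The FPKM values, per the file headers, are the authors' own; TopHat (version not given), Cufflinks 2.1.1 and GRCm38.p4 are named in the submitters' processing notes. The count columns are treated as a signal scaled by the authors, since in each library 98.5% to 98.8% of the nonzero values were whole multiples (tolerance 0.05) of 1 library-specific step, so no count model was used. The sources used here give neither the annotation nor the strand setting.

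DCKO was compared with control in limma 3.58.1 (R 4.3.3) on log2(FPKM + 1), with a variance trend, two-sided. This scale understates changes of low genes. All members called are named with their values, as are up to 3 called genes of each pathway list by size of change; Npr1 and genes given without values lie outside this rule. Members and lists were chosen with earlier results of these data known. Coordinates are from GENCODE M21 (GRCm38): 45 of 45 members matched, 2 through older symbols. Alternatives covered pseudocount, filters, scaling, variance trend, replicate block, each library left out and scaled counts. Replicate numbers are not taken to pair samples. 0 value columns were left unmapped.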

Additional observations from a re-analysis of the deposited data

How the results depend on the processing

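With 2 samples a group, 8 of the 12 members called lost the call without at least 1 library. Fits without 1 library gave 806 to 1384 genes higher and 1030 to 1875 lower, and 0 to 5 members higher and 5 to 10 lower; the lowest all-gene counts came without control replicate 2 (higher) and control replicate 1 (lower), and no member rose without DCKO replicate 1. Where a genotype kept 1 library, it was assumed to vary like the other pair. The count of members higher was 1 with no filter (6 lower), 5 with median centring and 6 on scaled counts (11 lower). The replicate block gave 1312 genes higher and 1418 lower, with 2 members higher and 8 lower, Adcy5 and Pde3a losing their calls. The correlation of the deviations of same-numbered libraries was -0.0211. With 2 libraries a group this value cannot decide whether same-numbered libraries were handled together, and the labels do not say. Signs turned for members near 0. Adcy2 came to 0.0483 with median centring, 0.0430 with quantile normalization, 0.01 with trimmed mean scaling and -0.0990 to 0.0813 with 1 library left out. Prkar2a came to 0.0029 and 0.0033 with the first of these scalings and the second, and to -0.176 to 0.0671 with 1 library left out. Prkar1a came to -0.0260 on scaled counts and -0.0147 to 0.0503 with 1 library left out, Pde7b to -0.290 to 0.456 and Pde8a to -0.384 to 0.217. The cause was not tested. Gucy1a3, Gucy1b3, Pde4d and Pde4a were called in every fit named here.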
